A study of Mus musculus with 2 samples.

Results

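The aldo-keto reductase genes Akr1c18, Akr1c14, Akr1c13, Akr1c12, Akr1b3, Akr1b7 and Akr1b8 were followed through single-cell RNA libraries of cultured mouse preadipocytes. They are 7 of the 27995 features listed in both count matrices and were taken by name. Their levels are given as CPM, the count of a gene per 1000000 unique molecular identifiers (UMIs, the tags that mark single RNA molecules) over the summed cells. The list was drawn up with values of these libraries known, and at least Akr1c18 was selected on its CPM ratio between the depots, so depot ratios are given here as a description. All 7 members had at least 4 UMIs over both libraries, and 2 of them, Akr1c18 and Akr1b3, had at least 50 CPM in 1 library.

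One library came from inguinal white adipose tissue (iWAT) and one from interscapular brown adipose tissue (iBAT) of wild-type C57BL/6N mice aged 8 to 12 weeks, with tissue pooled over animals. Stromal vascular cells were grown in high glucose medium to 80% confluency and cultured for 48 h without a growth factor or with 5.5 nM FGF1, FGF2 or FGF8. These are the deposited labels; the study's methods name no FGF8 culture for this assay and give another age range, so which cultures each mixture holds is uncertain. For each depot, 10000 cells of each of the 4 cultures were tagged and combined on a BD Rhapsody cartridge for 40000 cells, which captures single cells in wells and labels each RNA molecule with a UMI. The matrices analysed here carry no tag per cell, so each depot is a mixture of the 4 cultures and no value below belongs to a treatment.

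The iWAT library held 29962 barcodes and 503611913 UMIs, and the iBAT library 28636 barcodes and 815235820 UMIs. After removal of cells with 200 genes or fewer, 7500 genes or more, or at least 30% mitochondrial UMIs, 29744 and 28215 cells were kept. Cells with a UMI of Pdgfra, a receptor carried by adipocyte progenitors, and with fewer than 3 of 8 markers of each of 5 other cell classes formed the stromal gate, 16468 cells of iWAT and 24863 of iBAT, with median depths of 18151 and 27785 UMIs. These were 55.4% and 88.1% of kept cells, with Pdgfra at 145 and 287 CPM inside the gate. The other kept cells of iWAT had Col1a1 at 12236 CPM. Stromal cells without a detected Pdgfra UMI may be among them and so outside the depot comparison, which was not tested. Col1a1, a fibrillar collagen gene, was detected in 100% and 99.992% of stromal-gate cells, Thy1 in 98.1% and 97.6% and Pdgfrb in 78.6% and 91.9%, in iWAT and iBAT respectively. Lum was detected in 14.99% and 7.01%. Col1a1 was also in 4077 of 4104 epithelial-gate cells of iWAT and 498 of 498 Schwann-gate cells of iBAT, gates described below. Its detection therefore does not mark stroma. In iWAT Ly6a and Fn1 stood lower in the stromal gate (128 and 1492 CPM) than in other kept cells (293 and 2718 CPM). In iBAT Col1a1 did so, at 6302 and 6424.5 CPM. The rest of the 10 stromal markers stood higher in the gate of each library. Each depot is 1 library without a replicate, which leaves nothing to test between depots, and all intervals below are 95% exact intervals that cover counting error only. Depot cannot be told apart from other differences between these libraries. One such difference was sex-linked RNA: over kept cells Xist stood at 345 CPM in the iWAT and 0.0505 CPM in the iBAT library, and the Y-linked Ddx3y at 1.20 and 81.9 CPM. The libraries shared 8 barcodes, and Scrublet marked 201 and 646 stromal-gate cells as doublets, which stayed in.

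Aldo-keto reductases are NADPH-dependent cytosolic enzymes that reduce carbonyl groups of aldehydes, ketones, steroids and prostaglandins. The AKR1C branch acts largely on steroids and prostaglandins: mouse Akr1c18 encodes the 20α-hydroxysteroid dehydrogenase that inactivates progesterone in the ovary at the end of pregnancy, and Akr1c14 a 3α-hydroxysteroid dehydrogenase. The AKR1B branch centres on aldose reductase, encoded by Akr1b3, which reduces glucose to sorbitol in the polyol pathway. Akr1b7 was first described in vas deferens and is a major adrenal transcript, and Akr1b8 is induced by fibroblast growth factor in fibroblasts.

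In the GRCm39 genome with GENCODE M39 annotation, the 4 Akr1c members lie near each other on chromosome 13 and the 3 Akr1b members on chromosome 6. Akr1c14 spans 4099002 to 4141081 on the plus strand, Akr1c18 4182614 to 4200672 on the minus strand, Akr1c13 4241149 to 4255602 on the plus strand and Akr1c12 4318168 to 4329432 on the minus strand, each with 9 exons and 972 coding bases. Akr1c19 lies between Akr1c13 and Akr1c12. On chromosome 6, Akr1b3, which the annotation lists as Akr1b1, spans 34279369 to 34294434 on the minus strand, Akr1b8 34331054 to 34345409 and Akr1b7 34389021 to 34400449 on the plus strand, each with 10 exons and 951 coding bases, and Akr1b10 lies between Akr1b8 and Akr1b7.

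The coding sequences bear on which members can be counted apart. Akr1c12 and Akr1c13 are identical over 96.2% of coding bases, Akr1b7 and Akr1b8 over 84.9%, Akr1c18 and Akr1c14 over 76.0%, Akr1c18 and Akr1c13 over 74.0% and Akr1b3 and Akr1b8 over 71.7%. The last 120 coding bases, in exons 8 and 9, are shown 5′ to 3′ because they show how close this pair is. Capitals mark the bases that differ from Akr1c13.

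Akr1c13, coding bases 853 to 972: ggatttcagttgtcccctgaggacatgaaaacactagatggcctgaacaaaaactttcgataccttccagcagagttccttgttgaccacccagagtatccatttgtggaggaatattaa
Akr1c12, coding bases 853 to 972: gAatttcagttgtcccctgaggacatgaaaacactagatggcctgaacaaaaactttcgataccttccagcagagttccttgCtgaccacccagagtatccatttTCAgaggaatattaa
Akr1c14, coding bases 853 to 972: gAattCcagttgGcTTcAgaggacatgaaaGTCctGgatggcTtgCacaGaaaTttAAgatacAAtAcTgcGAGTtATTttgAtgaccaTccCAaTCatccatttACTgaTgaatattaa
Akr1c18, coding bases 853 to 972: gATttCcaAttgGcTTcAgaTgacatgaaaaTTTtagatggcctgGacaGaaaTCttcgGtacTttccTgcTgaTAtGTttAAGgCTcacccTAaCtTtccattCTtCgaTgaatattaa

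Within this stretch Akr1c12 differs from Akr1c13 at 5 bases, and Akr1c14 and Akr1c18 differ from it at 37 bases each. The longest identical run of the Akr1c12 and Akr1c13 transcripts is 228 bases, and their last 500 bases differ or are gapped at 45 alignment columns. How the counting assigned reads within the identical runs is not given in the sources used here, so the separate levels of Akr1c12 and Akr1c13 are uncertain. Akr1b3 shares 26.8% of its last 500 bases with the gene Gm6644, and its level carries the same uncertainty.

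The 250 bases before the transcript start are shown 5′ to 3′ on the strand of each gene for Akr1c18, the member with the highest iBAT level, and for the near-identical pair. Capitals in the pair mark the bases that differ or are gapped between them, and Akr1c18 is in lower case since it was not aligned.

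Akr1c18, chr13:4200673-4200922, minus strand: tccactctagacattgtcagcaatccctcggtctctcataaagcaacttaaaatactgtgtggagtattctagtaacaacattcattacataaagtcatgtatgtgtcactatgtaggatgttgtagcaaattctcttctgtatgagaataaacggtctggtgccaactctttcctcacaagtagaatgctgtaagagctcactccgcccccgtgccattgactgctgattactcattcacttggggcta
Akr1c13, chr13:4240899-4241148, plus strand: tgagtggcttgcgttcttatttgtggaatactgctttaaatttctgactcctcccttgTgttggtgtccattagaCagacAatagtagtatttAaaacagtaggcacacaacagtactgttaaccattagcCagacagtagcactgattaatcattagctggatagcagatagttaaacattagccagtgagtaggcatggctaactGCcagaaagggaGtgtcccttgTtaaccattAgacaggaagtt
Akr1c12, chr13:4329433-4329682, minus strand: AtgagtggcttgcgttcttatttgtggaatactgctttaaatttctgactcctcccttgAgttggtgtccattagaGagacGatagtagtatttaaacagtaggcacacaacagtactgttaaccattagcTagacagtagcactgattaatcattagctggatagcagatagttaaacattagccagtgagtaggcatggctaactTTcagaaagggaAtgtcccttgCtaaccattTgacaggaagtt

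The pair differs at 11 of 251 alignment columns over this stretch, so the similarity reaches beyond the transcripts. A window of 250 bases before and 50 after the start of the canonical transcript, which for Akr1c14 lies inside the gene's span (window chr13:4109326-4109625), was searched on both strands for the core of the antioxidant response element, TGACNNNGC, and for the AP-1 site TGANTCA. These letters stand in the windows of 12.5% and 7.15% of 21736 annotated genes and in 0 of the 7 members, which says only that they are not in this window.

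Akr1c18 was the member with the largest ratio between the libraries. In the stromal gate it had 1492 UMIs in iWAT, which is 4.84 CPM (interval 4.60 to 5.09), and 134051 UMIs in iBAT, which is 188 CPM (187 to 189). The iBAT level was 38.9-fold the iWAT level (36.95 to 40.9), a log2 ratio of 5.28. Over all kept cells the levels were 3.99 and 184 CPM.

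The other Akr1c members were rarer, and all stood higher in the iBAT library. Akr1c14 had 202 UMIs or 0.655 CPM in the iWAT and 3427 UMIs or 4.81 CPM in the iBAT library, a ratio of 7.34 (6.37 to 8.50). For Akr1c13, whose product is close in sequence to other hydroxysteroid dehydrogenases of the branch, 68 UMIs gave 0.221 CPM in the iWAT and 957 UMIs gave 1.34 CPM in the iBAT library, a ratio of 6.09 (4.76 to 7.91), and over all kept cells the levels were 0.574 and 1.53 CPM, a ratio of 2.67 (2.35 to 3.05). Akr1c12 had 27 and 250 UMIs, or 0.0876 and 0.351 CPM, a ratio of 4.01 (2.69 to 6.20). Akr1c19, no member but lying inside the same run of genes, had 34 UMIs or 0.110 CPM in the iWAT and 17 UMIs or 0.0239 CPM in the iBAT library, a ratio of 0.216 (0.113 to 0.398). Of these 5 neighbouring genes it was the 1 that was lower in iBAT.

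Akr1b3 and Akr1b8 were near equal between the libraries. Akr1b3 stood at 115 CPM (114 to 116) in the iWAT and 110 CPM (109 to 111) in the iBAT library, a ratio of 0.960 (0.948 to 0.972). Akr1b8 stood at 40.1 CPM (39.4 to 40.9) and 43.4 CPM (42.9 to 43.8), a ratio of 1.08 (1.06 to 1.10). Akr1b7 had 6 UMIs in iWAT and 11 in iBAT among all stromal-gate cells, or 0.0195 and 0.0154 CPM, and its ratio of 0.793 had an interval of 0.269 to 2.61. Akr1b10, which lies between Akr1b8 and Akr1b7 and is no member, stood at 19.97 and 22.7 CPM.

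**Figure D1:**
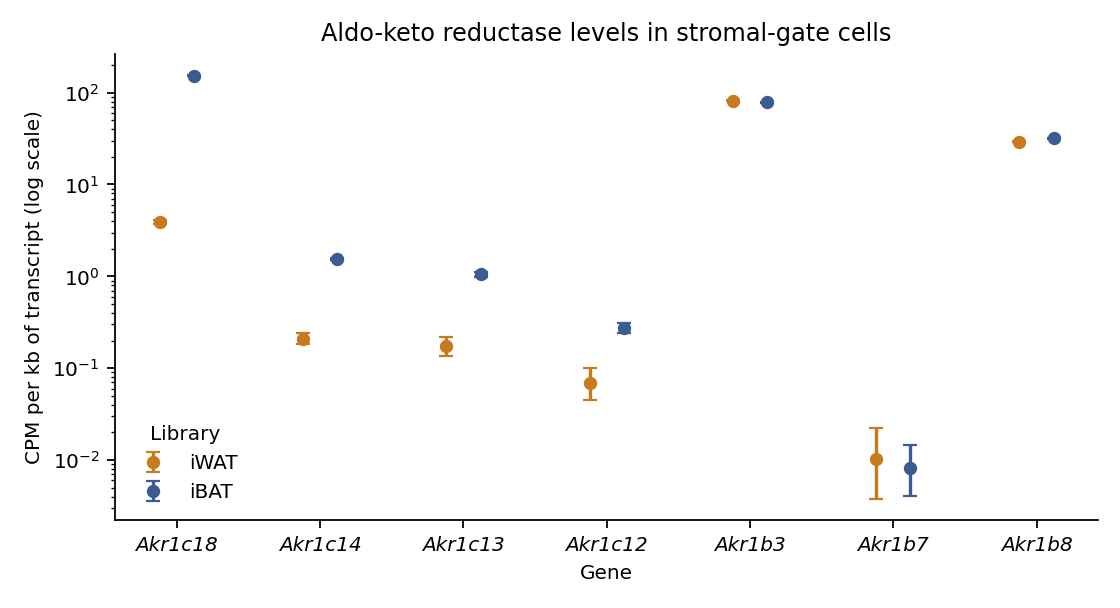
Levels of the 7 members in stromal-gate cells of both libraries, in CPM per kilobase of transcript on a log axis, with exact Poisson intervals that cover counting error only. The 4 Akr1c members lie higher in iBAT, from 4.01-fold for Akr1c12 to 38.9-fold for Akr1c18, and Akr1b3 and Akr1b8 lie at nearly the same level in both libraries.

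In the plot of levels by depot, 4 of 4 Akr1c members and 0 of 3 Akr1b members were at least 2-fold higher in iBAT with an interval clear of an equal level, and 0 of 7 were at least 2-fold higher in iWAT. Among 26731 features with at least 4 UMIs, 7.59% were 2-fold or more higher in iBAT and 8.22% in iWAT, and 3.08% and 2.93% were so at 4-fold. Among the 3793 features with at least 50 CPM in 1 library these shares were 3.51% and 3.95%, and at 4-fold 1.29% and 0.949%, with a median log2 ratio of 0.06. The same 4 members passed 4-fold, Akr1c12 narrowly: its log2 ratio of 2.00 was 1.945 with median-of-ratios scaling, 1.97 without doublets and 1.99 where 2 Pdgfra UMIs were required, all under 4-fold, as was Akr1c13 over all kept cells. The counts are of the members, not of the whole Akr1c subfamily: beside Akr1c19, the rare Akr1c20, Akr1c6 and Akr1c21, with 9 UMIs or fewer per library, had ratios of 0.337 (0.107 to 1.02), 0.577 (0.0976 to 3.94) and 1.30 (0.104 to 68.2), whose intervals all cover an equal level. Since the depot ratio selected Akr1c18, these shares stand as background and nothing is read from them. Markers of cell classes that were not gated out also differed between the libraries inside the stromal gate. In iWAT and iBAT the 8 mural markers together reached 211 and 79.1 CPM, and the 8 adipocyte markers 297 and 493 CPM, with 2 of the 8 adipocyte markers at 0 in iWAT, and their part in the depot ratios was not tested.

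Levels of different members were set beside each other per kilobase of transcript, although a UMI count need not scale with transcript length. The order of the members was the same in CPM and in CPM per kilobase within each library, and it differed between the libraries. In iWAT Akr1b3 was highest at 81.4 CPM per kilobase, followed by Akr1b8 at 29.3, Akr1c18 at 3.95, Akr1c14 at 0.210, Akr1c13 at 0.174, Akr1c12 at 0.0691 and Akr1b7 at 0.0102 CPM per kilobase. The iWAT intervals of Akr1c14 and Akr1c13 overlapped per kilobase, but not in CPM, where they were 0.568 to 0.752 and 0.171 to 0.280. In iBAT Akr1c18 was highest at 153 CPM per kilobase, followed by Akr1b3 at 78.1, Akr1b8 at 31.7, Akr1c14 at 1.54, Akr1c13 at 1.06, Akr1c12 at 0.277 and Akr1b7 at 0.00812 CPM per kilobase. Akr1c18 thus moved from the third place in iWAT to the first in iBAT, while the order of the other 6 members was the same in both.

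Shares of positive cells were compared after each cell was thinned to 10000 UMIs, which kept 14828 stromal-gate cells of iWAT, left out 1640 shallower ones there, and kept all 24863 of iBAT. Akr1c18 was detected in 2.81% (2.55 to 3.09) of the iWAT and 40.1% (39.5 to 40.7) of the iBAT stromal gate, against 4.36% and 55.2% without thinning. Free RNA in a droplet or well can give a UMI in a cell that does not express the gene, so the same share was taken in other cell classes. Those gates require no Pdgfra UMI, which leaves out cells that took up free Pdgfra RNA, so their shares may understate free stromal RNA. The epithelial gate of iWAT, with a median depth of 10834 UMIs, had Akr1c18 in 0.588% of cells (0.322 to 0.985), or 0.731% without thinning. In iBAT the share was 9.93% (5.67 to 15.9) in the immune gate, 7.38% (3.43 to 13.5) in the endothelial gate, 10.4% (7.90 to 13.5) in the Schwann gate and 11.6% (7.21 to 17.3) in the muscle gate, at median depths of 21507, 20090, 14875 and 18889 UMIs. Without thinning these shares were 21.2%, 18.03%, 14.7% and 20.8%. The stromal share lay above the intervals of all 4 iBAT gates and of the iWAT epithelial gate. In iWAT the immune gate (1 of 94 cells, 1.06%, 0.0269 to 5.79) and the Schwann gate (0 of 21 cells, which allows up to 14.3%) were too small to set it apart.

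Akr1c14 was detected in 0.701% of thinned stromal-gate cells of iWAT (0.573 to 0.849) and 4.28% of iBAT (4.03 to 4.54), or 1.18% and 10.5% without thinning. The epithelial gate of iWAT had it in 0.168% (0.0458 to 0.430), and the Schwann gate of iBAT in 0 of 498 cells, which allows a share of up to 0.602%. The stromal shares lay above these values, but not above every gate. The endothelial gate of iBAT had Akr1c14 in 6.56% of cells (2.87 to 12.5) and its immune gate in 1.32% (0.161 to 4.70), and the iWAT immune gate had 0 of 94 cells, which allows a share of up to 3.19%, so these gates do not set the stromal shares apart. Akr1c13 was detected in 0.223% (0.153 to 0.312) and 1.27% (1.13 to 1.41) of stromal-gate cells, 0.389% and 3.20% without thinning, and Akr1c12 in 0.0742% (0.0370 to 0.133) and 0.342% (0.273 to 0.423), 0.146% and 0.837% without thinning. The stromal shares of Akr1c13 were not above those of other classes: the muscle gate of iBAT had 0.578% (0.0146 to 3.18), the epithelial gate of iWAT 2.27% (1.71 to 2.95) and the immune gate of iBAT 19.2% (13.3 to 26.4), or 3.02% and 34.4% without thinning in these last gates. The stromal shares of Akr1c13 therefore do not tell expression by the stromal cells from free RNA, which was not tested. Neither do those of Akr1c12, for which the Schwann gate of iBAT had 0.201% (0.00508 to 1.11).

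At equal depth the shares of Akr1b3 and Akr1b8 were close between depots. Akr1b3 was detected in 65.4% (64.6 to 66.2) of iWAT and 64.0% (63.4 to 64.6) of iBAT stromal-gate cells, and Akr1b8 in 32.2% (31.4 to 32.9) and 34.4% (33.8 to 34.9). Without thinning the shares were 80.8% and 90.8% for Akr1b3 and 49.1% and 66.1% for Akr1b8, so most of their unthinned distance was gone at 10000 UMIs per cell. Both genes were detected in every class described here: Akr1b3 was in 62.8% of epithelial-gate cells of iWAT and 75.1% of muscle-gate cells of iBAT. How much of this detection is free RNA was not tested. Akr1b7 was detected in 4 cells of iWAT and 1 cell of iBAT, too few to compare.

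The thinned counts also described how the UMIs of each member were spread over cells. In iBAT Akr1c18 averaged 1.78 UMIs per 10000, with a variance 11.9 times the mean. No UMI was found in 59.9% of cells, 14.01% had 1 UMI, 12.0% (2987 cells) had 5 or more and 0.953% had 20 or more, up to 294 in 1 cell. The tenth of cells with most Akr1c18 held 64.6% of its UMIs and the top 1% of cells held 17.0%. Akr1c18 in iBAT was therefore concentrated in a minority of cells, and without thinning 61 cells (0.245%) held 100 or more UMIs and the highest held 976 of its 33186 UMIs, or 2.94% of all its RNA. In iWAT the mean was 0.0458 UMIs, the variance 3.72 times the mean, the highest cell 26 UMIs, and 14 cells held 5 or more.

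Akr1b3 and Akr1b8 had variances close to their means at this depth. Akr1b3 averaged 1.12 UMIs in iWAT and 1.09 in iBAT with variances 1.13 and 1.16 times the mean. For Akr1b8 the means were 0.397 and 0.436 UMIs and the variances 1.06 and 1.07 times the mean. Akr1c14 in iBAT had a variance 1.39 times its mean, at a mean of 0.0486 UMIs. Since this ratio depends on the mean, it does not rank evenness between members or libraries with unlike means. At means this low, a ratio near 1 also does not show that a gene was evenly spread over cells.

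**Figure D2:**
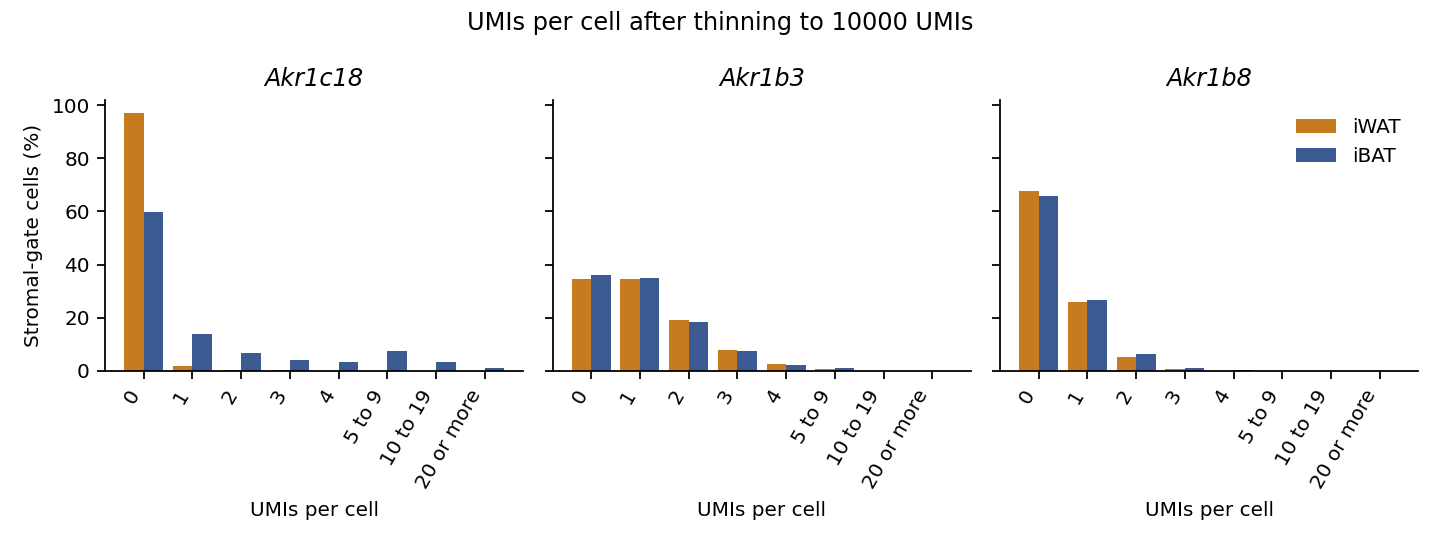
Share of stromal-gate cells, in percent, by UMIs of Akr1c18, Akr1b3 and Akr1b8 per cell after thinning to 10000 UMIs, for each library. Akr1c18 in iBAT has 59.9% of cells at 0 and 12.0% at 5 UMIs or more, while Akr1b3 and Akr1b8 have nearly the same distribution in both libraries.

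Other cell classes were gated on at least 3 of 8 detected markers of the class, fewer than 3 of any other class and no Pdgfra UMI. Gates of 50 cells or more were the epithelial (4104 cells), immune (147) and Schwann (62) gates of iWAT and the immune (151), endothelial (122), Schwann (498) and muscle (173) gates of iBAT. Scrublet doublets in them numbered 175 for the epithelial gate and at most 7 for the others. No class is named beyond these markers.

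Akr1c18 was lower in each of these gates than in the stromal gate of the same library, as far as the counts reach. In iBAT it stood at 59.7 CPM (51.7 to 68.5) in the immune gate, 8.76 CPM in the endothelial gate, 19.6 CPM in the Schwann gate and 32.6 CPM in the muscle gate, or 0.317, 0.0466, 0.104 and 0.173 times the stromal level. A single cell held 60 of the 109 UMIs of the muscle gate, and without it the level was 14.8 CPM. Stromal marker genes were read in the same gates for comparison. In the immune gate Col1a1, Dcn and Pdgfrb stood at 23.2%, 24.0% and 16.9% of their stromal CPM and Akr1c18 at 31.7%. In the endothelial gate they stood at 13.2%, 18.9% and 14.7%, and Akr1c18 at 4.66%. Akr1c18 was thus above all 3 genes in the immune gate and below all 3 in the endothelial gate. In the muscle gate they stood at 8.08%, 10.1% and 11.7%, and Akr1c18 at 17.3%. With the highest cell of each gene left out, Col1a1, Dcn and Pdgfrb stood there at 0.0633, 0.0692 and 0.109 times their stromal levels. Akr1c18 then stood at 0.0788 times its own, above Col1a1 and Dcn and below Pdgfrb. In the Schwann gate Col1a1 was at 133%, Dcn at 5.92% and Pdgfrb at 20.7%, with Akr1c18 at 10.4%, between the last pair. How much of these levels is free RNA, and whether those cells transcribe Akr1c18, was not tested. In iWAT the epithelial gate had 0.728 CPM, or 0.151 times the stromal level, the immune gate 3 UMIs, and the Schwann gate 0 UMIs, which allows up to 5.18 CPM.

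Akr1c14 followed another order among the iBAT classes. The endothelial gate had 7.62 CPM, 1.58 times the stromal level (0.966 to 2.45), the immune gate 2.07 CPM, 0.430 times, and the muscle gate 5 UMIs, 4 of them in 1 cell. No Akr1c14 UMI was found in the 498 Schwann-gate cells, which allows up to 0.379 CPM beside 4.81 CPM in the stromal gate. Without its highest cell the muscle gate stood at 0.303 CPM, below what the Schwann count of 0 allows, so the lowest gate for Akr1c14 could not be told.

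Akr1c13 and Akr1c12 stood above their stromal levels in the immune gate of both libraries. Whether the immune gate was the highest in iWAT could not be told, since its Schwann gate had 1 Akr1c13 UMI (1.73 CPM, 0.0437 to 9.62) and no Akr1c12 UMI, which allows up to 5.18 CPM. In iWAT 16 Akr1c13 UMIs gave 8.55 CPM (4.89 to 13.9) in the immune gate, 38.8 times the stromal level (21.0 to 67.6), and 142 UMIs gave 2.87 CPM in the epithelial gate, 13.03 times (9.69 to 17.7). In iBAT 70 UMIs gave 20.7 CPM (16.1 to 26.1) in the immune gate, 15.4 times the stromal level (11.9 to 19.6), and 36 UMIs gave 4.55 CPM in the Schwann gate, 3.38 times (2.36 to 4.72). Akr1c12, whose sequence is close to that of Akr1c13, had 3 UMIs in the iWAT immune gate, 18.3 times the stromal CPM (3.56 to 59.5), and 11 UMIs in the iBAT immune gate, 9.26 times (4.57 to 16.9). The summed CPM of the 8 immune markers inside the stromal gate was 35.9 in iWAT and 57.5 in iBAT, with 0 of 8 markers at 0, and its part in the depot ratios of Akr1c12 and Akr1c13 was not tested.

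Akr1b3 and Akr1b8 were detected at like levels in most classes. Akr1b3, with the aldose reductase role, stood at 110 CPM in the epithelial gate and 118 CPM in the immune gate of iWAT, against 115 CPM in the stromal gate. In iBAT it stood at 260 CPM (243 to 277) in the muscle gate, 2.35 times the stromal level (2.20 to 2.52), and 254 CPM without its highest cell. The endothelial gate had 202 CPM, of which 1 cell held 120 of 530 UMIs, and 158 CPM without that cell. The muscle gate was therefore the 1 gate where Akr1b3 was at least 2-fold above the stromal level. A share over all features was taken only for the immune gates, given further below. How common a 2-fold distance from the stromal gate is in the epithelial, endothelial, Schwann and muscle gates is therefore not known, for any member. Akr1b8 was highest in the Schwann gate of each library, at 79.4 CPM (58.2 to 106) in the iWAT and 80.3 CPM (74.2 to 86.8) in the iBAT library, 1.98 times (1.45 to 2.64) and 1.85 times (1.71 to 2.00) the stromal level. Akr1b7 had 2 UMIs in the epithelial gate and 0 in the other gates outside the stromal gate.

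**Figure D3:**
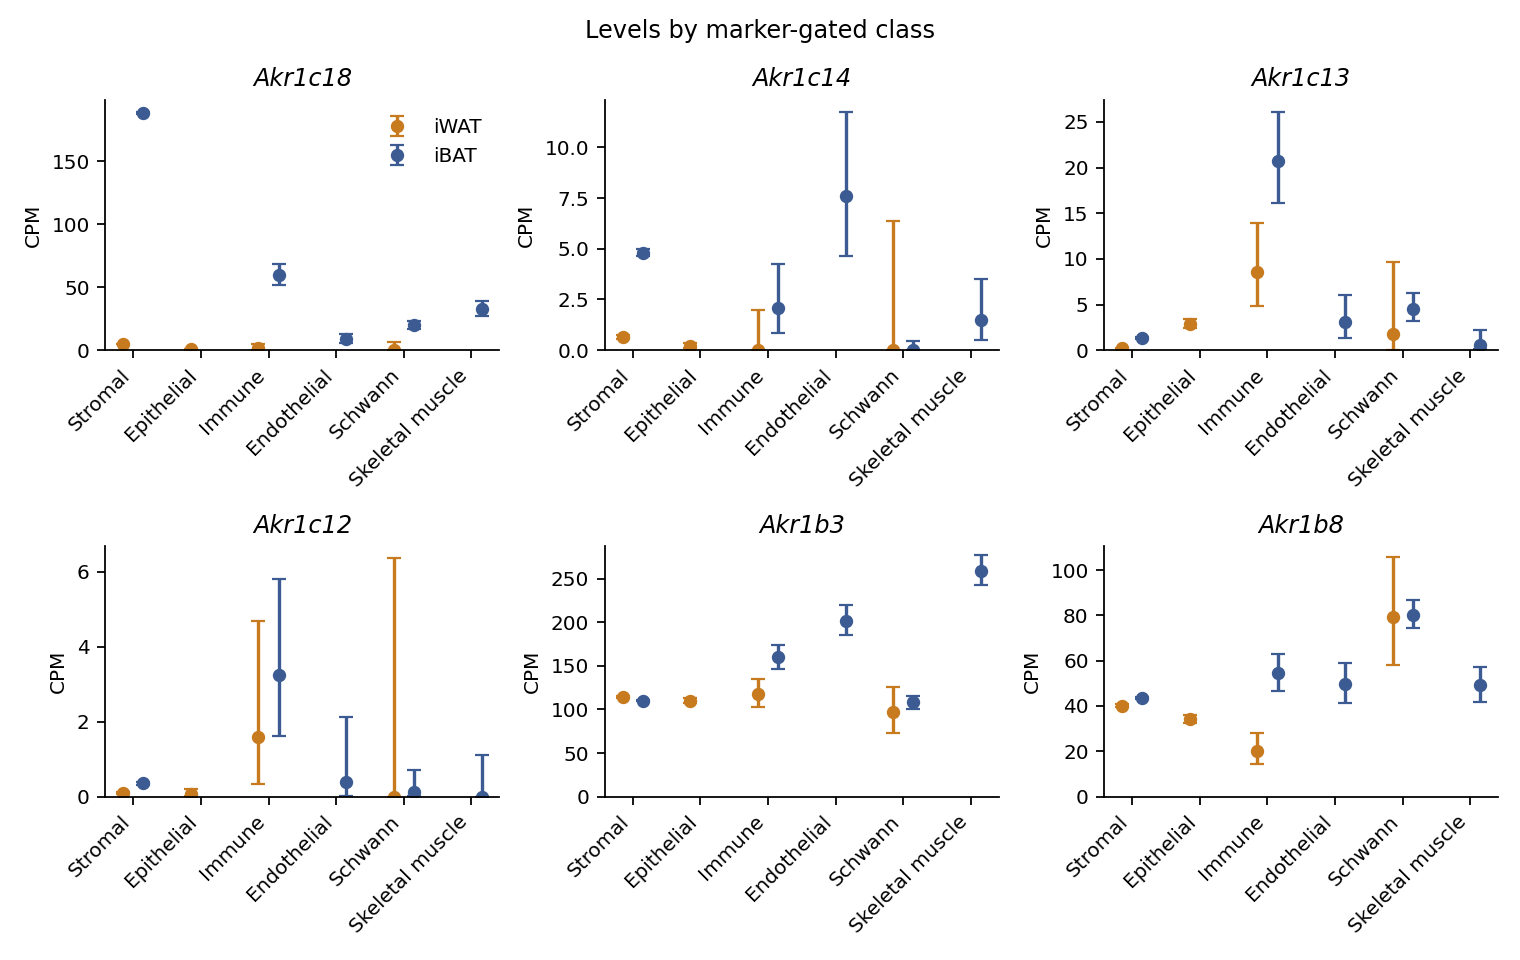
CPM of 6 members, without Akr1b7, in each marker-gated class of each library, with exact Poisson intervals that cover counting error only. Akr1c18 is highest in the iBAT stromal gate at 188 CPM, Akr1c13 in the iBAT immune gate at 20.7 CPM, Akr1b3 in the iBAT muscle gate at 260 CPM and Akr1b8 in the Schwann gates at 79.4 and 80.3 CPM.

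Of the 7 members, Akr1c12 and Akr1c13 were at least 2-fold higher in the immune than in the stromal gate of both libraries. Of 23888 features in iWAT, 8.56% were 2-fold or more higher and 7.91% lower, and of 26306 features in iBAT, 7.8% were higher and 10.1% lower. Akr1c18 was among the lower ones in both libraries and Akr1c14 in iBAT. With 2 markers per class in place of 3, the calls for Akr1c13 stood in both libraries and that for Akr1c12 in iBAT, while Akr1c12 in iWAT, Akr1c18 in both libraries and Akr1c14 in iBAT no longer passed 2-fold.

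Within the stromal gate, states were set by pairs of marker genes in thinned cells, a cell being inside when both genes of the pair had a UMI and outside when neither had. For the contractile pair Acta2 and Tagln, 14464 iWAT cells were inside and 57 outside, and 22599 iBAT cells were inside and 323 outside. Akr1c18 stood at 159 CPM inside and 461 CPM outside in iBAT, a ratio of 0.344 (0.327 to 0.363), and 193 of the 323 outside cells had a UMI. In iWAT it stood at 4.07 and 56.1 CPM, a ratio of 0.0724 (0.0507 to 0.107), but the outside value rests on 32 UMIs in 4 cells, 20 of them in 1 cell. Cells without these smooth muscle transcripts thus carried more Akr1c18 in iBAT, with few cells on the outside. In iWAT 4 of 57 cells outside and 386 of 14464 inside had a UMI, too few outside to tell. Of 21846 features in iWAT and 23246 in iBAT with at least 4 UMIs, 2.67% and 2.18% were 2-fold or more lower inside, among them 1 of the 7 members in each library.

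For the interferon pair Isg15 and Ifit3, 1735 iWAT cells were inside and 3697 outside, and 431 iBAT cells were inside and 22176 outside. Akr1c14 stood at 1.499 CPM inside and 0.514 CPM outside in iWAT, from 26 and 19 UMIs, a ratio of 2.92 (1.55 to 5.57). In iBAT it stood at 12.8 and 4.59 CPM, from 55 and 1017 UMIs, a ratio of 2.78 (2.08 to 3.65). Akr1c18 went the other way, with a ratio of 0.632 (0.474 to 0.833) in iWAT and 0.562 (0.510 to 0.618) in iBAT, and Akr1b3 and Akr1b8 had ratios between 0.996 and 1.15. Where 1 gene of the pair sufficed to be inside, the Akr1c14 ratio was 1.54 (0.929 to 2.68) in iWAT and 1.56 (1.33 to 1.82) in iBAT, under 2-fold, and that of Akr1c18 was 0.666 (0.566 to 0.784) in iWAT and 0.914 (0.885 to 0.943) in iBAT. Akr1c12 was 3.26-fold higher inside in iBAT (1.03 to 7.92), from 5 UMIs of which 3 were in 1 cell. This call was lost without the highest cell of each side and at a depth of 5000 UMIs. With both genes required, 1.28% of 19429 features in iWAT and 2.15% of 23240 in iBAT were 2-fold or more higher inside, beside 1 and 2 of the 7 members.

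Cycling cells, with UMIs of Mki67 and Top2a, numbered 4616 in iWAT and 7989 in iBAT against 6129 and 9655 with neither. In iBAT Akr1c18 was 1.15-fold higher in cycling cells (1.13 to 1.18), at 194 against 169 CPM, and Akr1c14 0.711-fold. By this pair 0 of 7 members were 2-fold apart in either library, beside 5.06% of 21048 features in iWAT and 6.2% of 22617 in iBAT. The adipogenic pair (0 and 49 cells inside in iWAT and iBAT) and the interstitial progenitor pair (11 and 2 cells) had too few cells to describe.

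**Figure D4:**
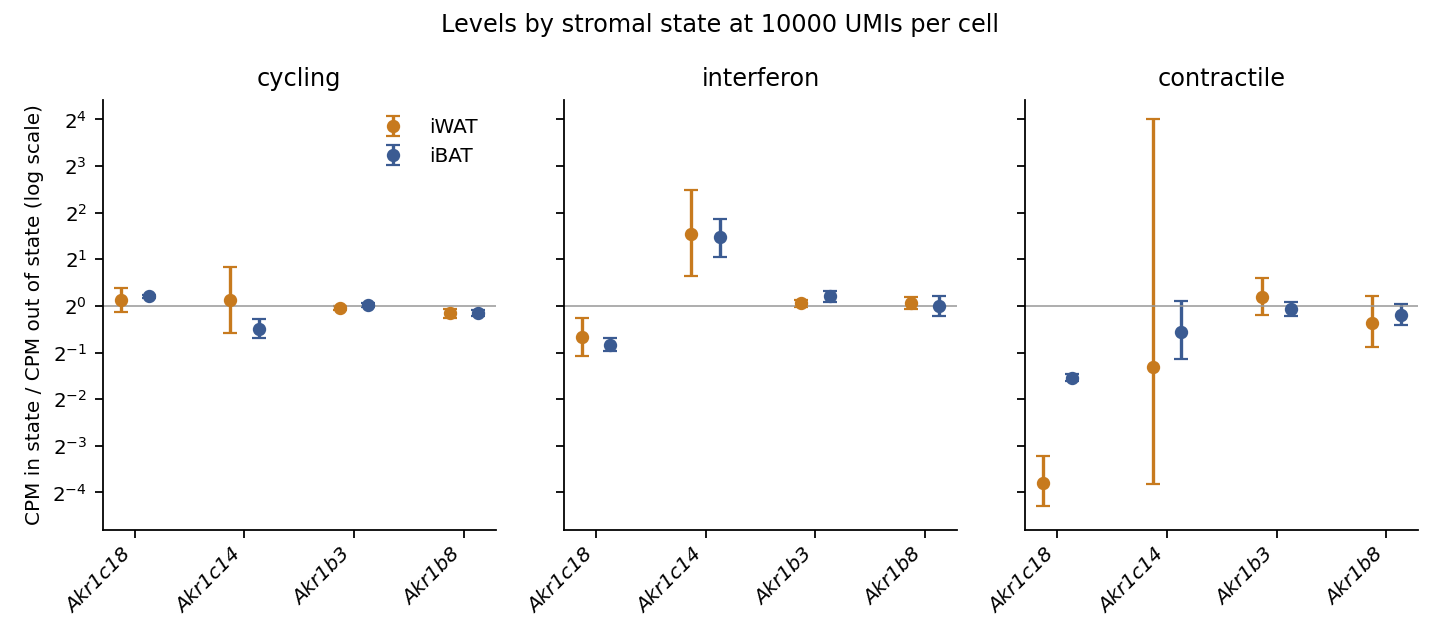
Ratio of CPM inside over outside a stromal state for Akr1c18, Akr1c14, Akr1b3 and Akr1b8, on a log axis, for the cycling, interferon and contractile pairs in each library, with exact counting intervals. Akr1c14 lies above 1 for the interferon pair, at 2.92 in iWAT and 2.78 in iBAT. Akr1c18 lies below 1 for the contractile pair, at 0.0724 and 0.344, and its iWAT value rests on 4 outside cells with a UMI.

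Genes whose counts went with Akr1c18 from cell to cell were ranked by Pearson's correlation of log counts over the 24863 thinned iBAT stromal-gate cells, among 10214 genes with a mean of at least 0.05 UMIs. The cells share 1 library and 1 depth, and treatments are mixed among them, so r is a description. The 12 highest were Prdx1 (r = 0.46), which encodes a peroxiredoxin, Pdpn (0.42), the podoplanin gene, Timp1 (0.39), an inhibitor of metalloproteinases, Prkcb (0.36), a protein kinase C, Mmp3 (0.35), a stromelysin, Spp1 (0.34), osteopontin, Ptgs1 (0.34), cyclooxygenase-1, Mmd (0.34), Nap1l1 (0.33), a histone chaperone, Esm1 (0.31), Esd (0.31), an esterase, and Angptl4 (0.31), an inhibitor of lipoprotein lipase. In all, 58 genes reached 0.2 in iBAT.

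The cells were next divided by their Akr1c18 count into 14900 with 0 UMIs, 6976 with 1 to 4 and 2987 with 5 or more. Prdx1 stood at 1301, 1997 and 3610 CPM over these tiers, a ratio of 2.77 between the last and the first. Prkcb went from 16.2 through 46.9 to 128 CPM, a ratio of 7.91, and Mmp3 from 149.99 through 455 to 945 CPM, a ratio of 6.30. Esm1 and Angptl4, both secreted proteins, were 6.12-fold and 4.48-fold higher in the top tier. The 12 genes with the lowest r were Col1a1 (−0.35), Serpinh1 (−0.35), the collagen chaperone, Col6a3 (−0.33), Acta2 (−0.33), Col5a2 (−0.31), Col3a1 (−0.31), Col1a2 (−0.31), Sparc (−0.30), Col5a1 (−0.29), Col6a1 (−0.28), Ccdc80 (−0.27) and Postn (−0.26). Col1a1 stood at 8407, 4895 and 2843 CPM over the tiers, Acta2 at 2393, 1653 and 895 CPM and Col6a3 at 257, 133 and 57.0 CPM. The genes of highest and of lowest r were picked for it in the same cells, so their higher and lower tier values follow from the choice. Acta2 is also a gene of the contractile pair above.

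**Figure D5:**
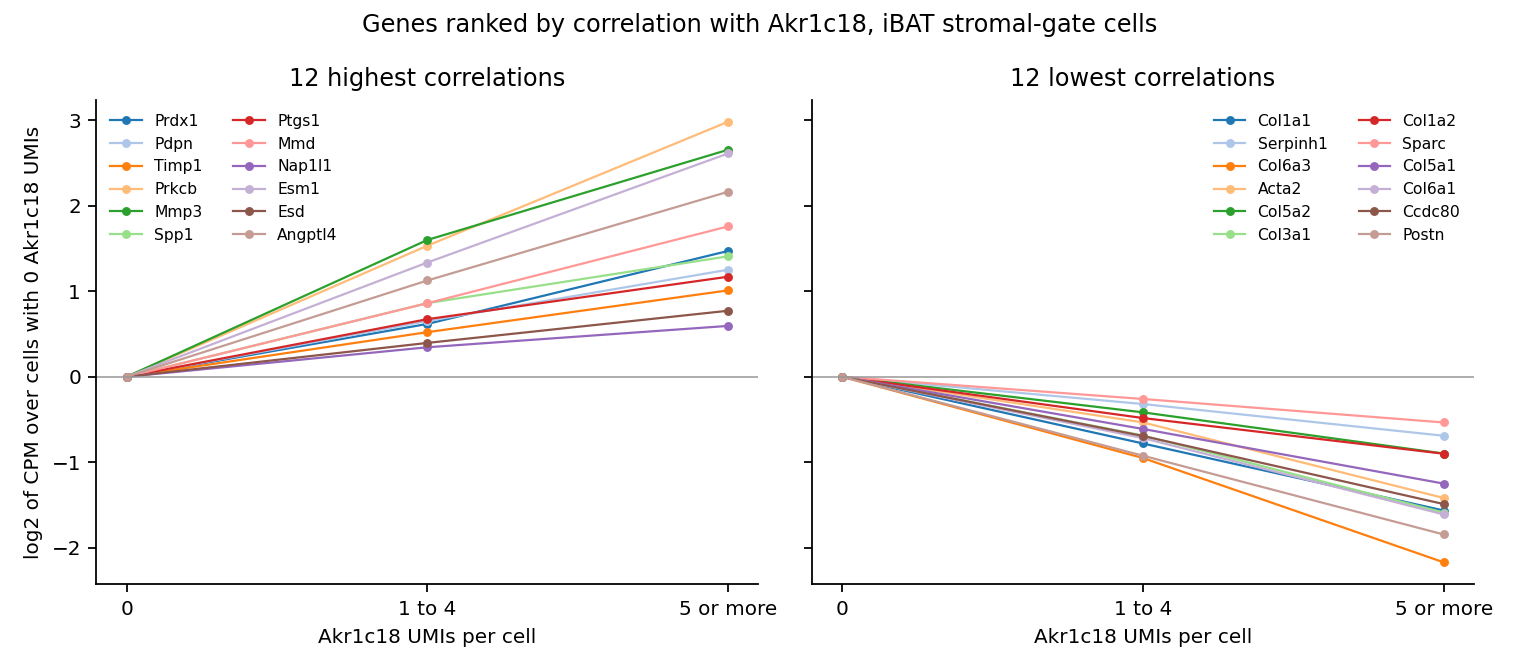
Log2 ratio of CPM to that in cells with 0 Akr1c18 UMIs, for the 12 genes with the highest and the 12 with the lowest correlation with Akr1c18, by Akr1c18 count in thinned iBAT stromal-gate cells (0, 1 to 4, and 5 or more UMIs in 14900, 6976 and 2987 cells). The genes were ranked on these same cells, and Prkcb lies highest, at 16.2, 46.9 and 128 CPM.

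The iWAT library did not enter this ranking. There, 14411 cells had no Akr1c18 UMI, 403 had 1 to 4 and 14 had 5 or more, and the highest r of any gene was 0.14, which is weak in counts this sparse and no finding by itself. Between the 403 cells and those with 0, the 12 top genes of iBAT were higher in 12 of 12 cases, with a median log2 ratio of 0.76 (range 0.23 to 1.35), and the 12 lowest were lower in 12 of 12, with a median of −0.43 (−0.82 to −0.28). Over 10137 genes 54.75% were higher, with a median of 0.02. This share was not matched on the level of the genes. The listed genes were read in the same cells of 1 library of mixed cultures and may vary together. They are therefore not separate outcomes, and these counts are a description that was not tested. Spp1, for example, stood at 2466 CPM in iWAT cells without an Akr1c18 UMI and 5335 CPM in those with 1 to 4, and Col1a1 at 18124 and 12502 CPM.

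The other members were read over the same Akr1c18 tiers in iBAT. Akr1c14 stood at 3.78, 5.42 and 8.97 CPM, a ratio of 2.37 (2.05 to 2.75) between 5 or more UMIs and 0. Akr1b8 stood at 39.9, 46.9 and 54.1 CPM, a ratio of 1.36 (1.28 to 1.43), and Akr1b3 at 103, 113 and 126 CPM, a ratio of 1.22. Akr1c13 had a ratio of 1.61, and Akr1c12 one of 1.29 with an interval of 0.679 to 2.31. At the cell level r was at most 0.08 between Akr1c18 and another member in iBAT, and correlations this low in sparse counts are no finding. Akr1c14 passed 2-fold by tier, but at levels below the 10 CPM used for the tier counts further below, so it has no background share.

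For Akr1b8 no gene outside the family stood out. Over 9733 genes measured in both libraries its highest r was 0.07 in iWAT and 0.09 in iBAT, and 0 genes reached 0.2. The 12 that ranked first by the lower of both r were Pdpn, Il1rl1, Gsto1, Tm4sf1, S100a6, Sh3bgrl3, Lgals3, Serpinb6a, Arhgdib, Sema7a, Emp1 and Spp1. Correlations this low in sparse counts are no finding, and Pdpn and Spp1 also appear among the 12 for Akr1c18.

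Lists of 7 related pathways were read in the same cells, counting genes with at least 10 CPM in 1 library that were 2-fold or more apart between depots. Over 8959 such features 3.71% were higher in iBAT and 4.3% in iWAT, with a median log2 ratio of 0.05. Of the NRF2 target list, genes of the response to oxidants, 5 of 15 were higher in iBAT and 0 in iWAT, with a median of 0.25. Gsta4, a glutathione transferase, stood at 1.56 CPM in the iWAT and 21.5 CPM in the iBAT library, and Nqo1, a quinone reductase, at 25.3 and 102 CPM. Gstm1 (3.44-fold) and Gclc (2.21-fold), both of glutathione metabolism, were also higher, while the abundant Hmox1 stood at 271 and 257 CPM and Txnrd1 at 242 and 217 CPM.

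The prostaglandin list covers enzymes of prostaglandin synthesis and breakdown, transporters and receptors. In it, 3 of 14 genes were higher in iBAT and 3 in iWAT, with a median of 0.03. Ptgs2, the inducible cyclooxygenase, stood at 518 CPM in the iWAT and 96.3 CPM in the iBAT library, a ratio of 0.186, and Ptgis, prostacyclin synthase, at 250 and 109 CPM. Ptgir, the prostacyclin receptor, was 3.63-fold and Ptger4, a prostaglandin E receptor, 2.25-fold higher in iBAT. Ptgs1, the constitutive cyclooxygenase, stood at 121 and 246 CPM, while Ptges3 stood at 335 and 346 CPM. Both cyclooxygenases thus lay on opposite sides between the libraries.

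In the list of steroid conversion and receptors, 3 of 14 genes were higher in iBAT and 2 in iWAT, with a median of 0.24. Hsd11b1, which regenerates active glucocorticoid, stood at 4.69 and 22.1 CPM in iWAT and iBAT, and Cyp1b1 at 71.9 and 269.8 CPM. Pgr, the receptor of progesterone, a substrate of the Akr1c18 product, stood at 41.3 CPM in the iWAT and 13.5 CPM in the iBAT library, a ratio of 0.326, and Cyp7b1, an oxysterol hydroxylase, had a ratio of 0.223. The abundant Hsd17b12 stood at 198.2 and 134 CPM. The Pgr level was therefore lower in the library where Akr1c18 was higher. The libraries also differed in sex-linked RNA, and a link between Pgr and Akr1c18 was not tested.

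The remaining lists had few genes apart. Of the aldehyde and polyol list 2 of 10 were higher in iBAT, the retinaldehyde dehydrogenases Aldh1a1 (3.78-fold) and Aldh1a2 (2.52-fold), and Aldh2 stood at 107 and 121 CPM and Adh5 at 68.2 and 74.2 CPM, with a list median of 0.19. Slc5a3, the inositol transporter of the osmotic list, stood at 13.9 CPM in the iWAT and 73.6 CPM in the iBAT library, 1 of 5 genes, with Slc6a6 at 108 and 169 CPM and Slc38a2 at 122 and 135 CPM and a list median of 0.14. Of the list of ERK feedback and early targets of FGF, 2 of 16 were higher in iBAT, Etv1 (3.97-fold) and Spry4 (2.21-fold), and Egr1 was higher in iWAT, at 670 against 315 CPM, with Phlda1 at 245 and 201 CPM and a list median of −0.06. Among the other aldo-keto reductases 1 of 5 was higher in iBAT, Kcnab1, a potassium channel subunit, at 2.01 and 25.7 CPM, while Akr1a1, the aldehyde reductase, stood at 330 and 338 CPM and the list median was 0.18.

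By Akr1c18 tier within iBAT, 0.988% of 8807 genes with at least 10 CPM were 2-fold or more higher with 5 or more UMIs than with 0, and 1.6% were lower. The NRF2 list had 4 of 16 higher and 0 lower: Nqo1 stood at 64.7, 116 and 209 CPM over the tiers, and Slc7a11, Gsta4 and Srxn1 were 3.52-fold, 2.21-fold and 2.01-fold higher. The prostaglandin list had 2 of 14 higher, Ptgs1 and the transporter Slco2a1 (2.16-fold), and the steroid list 1 of 13, Star (3.60-fold), which carries cholesterol into mitochondria. The aldehyde list of 11 had Adh7 higher (2.05-fold) and Aldh1a3 lower (0.406), and the list of ERK feedback and early targets, of 16, had Spred2 higher (2.07-fold) and Spry1 lower (0.470). Hspa4l (2.06-fold) was 1 of 5 in the osmotic list, and 0 of 5 other aldo-keto reductases and 0 of 2 members at that level were 2-fold apart.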

How the data were processed

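Single-cell RNA was counted in 1 iWAT and 1 iBAT library. The authors aligned reads on a commercial cloud pipeline and deposited whole-number UMI counts per gene and cell, not normalized. The submitters' processing notes name Seurat 5.0.0 and the mm39 build, and how multimapping reads were counted is not given in the sources used here. From these counts, cells were kept by the study's published limits and UMIs were summed per gate and divided by the gate's total (CPM). The members, lists and gates were chosen with earlier results of these data known. The gate limit of 3 of 8 markers was set on raw detection, and mural and adipocyte markers were not used to gate. Epithelial, endothelial, Schwann and muscle markers summed to 17.4, 14.6, 5.40 and 11.8 CPM in the iWAT and 0.940, 11.8, 11.5 and 13.3 CPM in the iBAT stromal gate.

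Levels have exact Poisson, shares Clopper-Pearson and ratios conditional binomial intervals. No p-value was computed because each depot has 1 library. A count of 0 was read as allowing 3. A feature was called at 2-fold with an interval clear of an equal level. Named list genes were those called at 10 CPM, at most 4 per list by ratio, the 2 of highest CPM, 12 correlated genes per member, and the genes 2-fold apart by Akr1c18 tier and Ptgs1, named after their values were seen. Akr1c19 and Akr1b10 are named for their position. Doublets were scored with Scrublet in scanpy 1.11.5 at an expected rate of 0.08. Python 3.11.15, numpy 2.4.6, scipy 1.17.1 and matplotlib 3.10.9 were used. The code was tested on simulated counts.

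Sequences came from the GRCm39 genome and GENCODE M39. The alternatives were all kept cells, fixed thinning depths, marker limits, doublets removed, other filters on low values, rank correlation and, chosen after seeing the data, removal of the highest cell per class or state.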

Additional observations from a re-analysis of the deposited data

Results flagged for a closer look

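Akr1b8 in the immune gate lay on opposite sides of the stromal level in the libraries. In iWAT 38 UMIs gave 20.3 CPM (14.4 to 27.9), 0.506 times the stromal level (0.358 to 0.695). Without its highest cell the gate stood at 18.3 CPM, 0.457 times the stromal level. It passed 2-fold lower in that case and under a stricter marker limit, but not in the main setting. In iBAT the immune gate stood at 54.4 CPM (46.8 to 62.8), 1.25 times the stromal level (1.08 to 1.45). The difference between the libraries was not tested. The gates held 147 and 151 cells with median depths of 11376 and 21507 UMIs. At 10000 UMIs per cell Akr1b8 was detected in 13.8% (7.57 to 22.5) of the iWAT and 41.7% (33.8 to 50.02) of the iBAT immune gate, against 32.2% and 34.4% of stromal-gate cells.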

How the results depend on the processing

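No paired analysis was possible because each depot has 1 library and no comparison has a test. The count of 4 members at least 2-fold apart between depots was the same under all 8 alternatives. Log2 ratios ranged from 5.21 to 5.52 for Akr1c18, 2.70 to 3.09 for Akr1c14 and 1.42 to 2.64 for Akr1c13, lowest over all kept cells, where its levels were 0.574 CPM in the iWAT and 1.53 CPM in the iBAT library. The count of features 2-fold apart was 283, and 717 at 10 CPM, 85 at 200 CPM and 4226 with no filter beyond 4 UMIs. Of the 12 genes ranked for Akr1b8, 5 remained at a depth of 5000 UMIs. There were 5 member and state pairs 2-fold apart and 3 where 1 gene of a pair sufficed. Akr1c18 by the contractile pair in both libraries stayed, and the 3 interferon calls were lost. Akr1c13 by the interstitial progenitor pair in iWAT was added as lower inside, from 1 UMI in 2702 cells against 32 UMIs in 12126 cells outside. No share over all features was taken where 1 gene of a pair sufficed. With 2 markers per class, Akr1c12 in the iWAT immune gate and Akr1c18 in both immune gates no longer passed 2-fold, and neither did Akr1c14 in that of iBAT. Few cells limit the small gates, and low counts limit Akr1b7, Akr1c12 and Akr1c13.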
